A study of Mus musculus with 11 samples.

Results

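The DNA replication and S phase genes described here are 39 listed genes, all 39 of them present among the 34866 genes of the deposited table and matched to it by mouse symbol. They comprise the licensing factors, the MCM ring, the helicase activators, the polymerases and primase, the sliding clamp and its loader, the Okazaki fragment enzymes, the enzymes of nucleotide supply, chromatin assembly factors, and E2f1 with the E-type cyclins. RNA of mouse gastric corpus mucosa was sequenced in bulk in 11 samples: 2 controls of wild-type genotype, and 3 samples each of the lines ATP4B-DTR and GIF-DTR and of their combination GIF/ATP4B-DTR. The lines were engineered so that parietal cells, chief cells or both can be ablated, with a diphtheria toxin receptor (DTR) in lines named for the parietal cell gene Atp4b and the chief cell gene Gif; GIF/ATP4B-DTR carries both. Strain, age, sex, toxin dose, time of collection and whether the controls received toxin are not given in the sources used here. Nothing says whether each sample came from a separate animal. The p-values therefore set differences between groups against the spread between these samples, which need not be that between animals.

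Replication is licensed in G1, when the origin recognition complex, Cdc6 and Cdt1 load the ring of Mcm2 to Mcm7 onto DNA. In S phase Cdc45 and the GINS complex join the ring and turn it into the moving helicase, primase and the polymerases copy the strands behind it, and nucleotide enzymes and histone chaperones supply what the copies need. Transcription of many of these genes is driven by E2F factors and held back by the pocket proteins of the retinoblastoma family, and in the corpus the dividing cells lie mainly in the isthmus of the gland, between the pit cells above and the parietal and chief cells below.

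Levels are given as CPM (counts per M counts of the library), scaled between libraries by edgeR's TMM factors; fold changes are on the log2 scale with the standard error (SE), and a gene is called changed at an edgeR quasi-likelihood p under 0.05 after Benjamini-Hochberg adjustment over the 14889 genes tested. Where 3 values of a gene stand together, they are for the ATP4B, the GIF and the combined line against control, in this order. Library totals ran from 20.7 to 27.9 M counts (M, mega), and a level of 3 counts corresponded to between 0.107 and 0.166 CPM. Parietal markers summed to between 15800 and 16800 CPM in the controls, 2950 and 4250 for ATP4B-DTR, 7110 and 9260 for GIF-DTR, and 927 and 2340 for GIF/ATP4B-DTR. Chief cell markers summed to between 71600 and 157000 CPM in the controls, 14300 and 50300 for ATP4B-DTR, 4810 and 21800 for GIF-DTR, and 2500 and 11300 for GIF/ATP4B-DTR. In bulk tissue, fewer cells of a type and less RNA per cell cannot be told apart, and a gene of dividing cells can rise through more such cells or more RNA in each. The controls differed from each other in stromal RNA, with smooth muscle markers summing to 247 CPM in one and 1530 in the other. The mean log2 CPM of 4 Y-linked genes was between 4.98 and 5.56 in both controls, ATP4B-DTR 1 and the 3 GIF/ATP4B-DTR samples, and between -1.29 and -0.85 in ATP4B-DTR 2, ATP4B-DTR 3 and the 3 GIF-DTR samples.

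Replication genes were higher in each of the 3 lines than in the controls. Of the 39 genes, 37 rose and 0 fell in ATP4B-DTR, where 12.2% of all genes tested were called higher. In GIF-DTR 37 rose and 0 fell, against 9.97% of all genes called higher, and in GIF/ATP4B-DTR 37 rose and 0 fell, against 18.2%. The same 37 rose in all 3 lines, a call that 8.16% of all genes tested carried; the lines share the 2 controls. Called higher with an estimate of at least 2-fold were 33, 35 and 36 of the 39 genes in the ATP4B, the GIF and the combined line. Of all genes, 5.21%, 4.47% and 8.16% were so called, and no test against a 2-fold change was made. The median log2 fold change of the 39 was 1.49, 1.63 and 1.67 in that order, beside medians of -0.015, -0.008 and -0.038 over all genes tested. In 37 of the 39 genes all 9 samples of the lines lay above both controls, a pattern held by 17.7% of the genes tested. The exceptions were Gins3 and Gins4, which did not pass the test in any line. Without control 2 the calls numbered 30, 27 and 34 in the 3 lines: lost were Orc1, Cdc6, Mcm2, Pola2, Pold1, Pole and Rfc3 in ATP4B-DTR, the same with Pcna, Tk1 and Ccne2 in GIF-DTR, and Cdc6, Pold1 and Pole in the combined line. Without control 1 the calls of Cdc6, Mcm2, Pold1 and Pole were lost in ATP4B-DTR, those of Cdc6, Pold1, Pole2 and Ccne2 in GIF-DTR, and that of Pold1 in the combined line. Leaving out a sample of a line cost calls of Cdc6, Pold1 and Pole alone. With the Y-linked level as a covariate 34, 26 and 37 genes were called. Mcm2, Pold1 and Pole were lost in ATP4B-DTR. In GIF-DTR the calls of Orc1, Cdc6, Mcm2, Mcm10, Gins1, Pola2, Pold1, Pole, Pole2, Pcna and Ccne2 were lost. The medians of the 39 in this fit were 1.65, 1.76 and 1.67. Of all genes 12.4%, 2.94% and 32.6% were called in either direction, against 21.6%, 16.8% and 33.6% without the covariate. With the 50 most abundant genes left out of the scaling, 36, 37 and 37 genes were called.

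**Figure D1:**
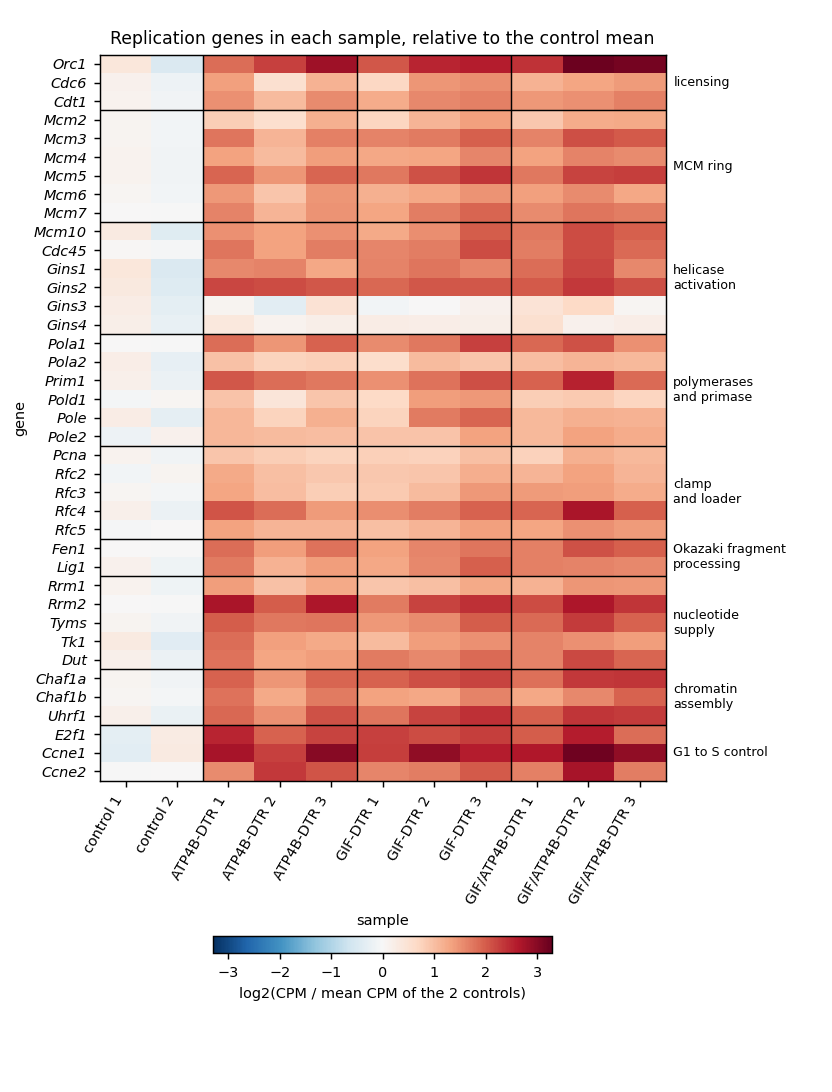
Level of each of the 39 replication genes (rows, by role) in each of the 11 samples (columns), as log2 of CPM over the mean CPM of the 2 controls. The 9 samples of the lines are above the controls in every row except Gins3 and Gins4, whose rows stay pale.

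Within the lines the samples differed in how far the set was raised. Taken per sample as the median of log2 over the control mean, the 39 genes stood at 1.65, 1.25 and 1.45 for ATP4B-DTR, 1.30, 1.59 and 1.88 for GIF-DTR, and 1.65, 1.77 and 1.68 for GIF/ATP4B-DTR. ATP4B-DTR 2 was the lowest of the 9 line samples in 20 of the genes and GIF-DTR 1 in 12. GIF/ATP4B-DTR 2 was the highest in 23 and GIF-DTR 3 in 11. Control 1 lay above control 2 in 32 of the 39 genes, with medians of 0.11 and -0.11 on the same scale. The most abundant members per kilobase of transcript were Pcna, Mcm6, Tk1, Rrm1 and Rrm2, with means of 68.7, 27.6, 26.6, 24.1 and 21.3 CPM per kb over the 11 samples, and the lowest were Pole and Orc1 at 1.19 and 1.2 CPM per kb.

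The promoters of these genes were searched for E2F-type letters because most of the members moved together. The sequences printed are stretches upstream of a RefSeq start site, outside annotated exons. They come from 5 members that hold a match and from Rrm2, a strongly raised member whose stretch holds none. For Cdc6 and Uhrf1 the stretch lies inside the annotated gene, after its first base at 98907801 and 56303321, and before a later start. Windows from 250 bases before to 50 after the start site were taken from RefSeq (GRCm38.p6), which had 32 of the 39 members. TTTCCCGC, TTTGGCGC, TTTCGCGC or TTTGCCGC, on either strand, occurred in 14 of the 32 (43.8%) and in 2.6% of the 27025 genes with a window. The match is a description of letters, not of a bound site. Capitals mark the matches: Mcm5 has a pair that overlap on opposite strands, Mcm6 a like pair and another match apart from it, and Cdc6, Pola1 and Uhrf1 have 1 each. The stretches are chr8:75109309-75109508 (plus strand) for Mcm5, chr1:128359706-128359905 (minus strand) for Mcm6, and chr11:98907982-98908150 (plus strand) for Cdc6. Those of Pola1, Uhrf1 and Rrm2 are chrX:93632156-93632355 (minus strand), chr17:56304113-56304312 (plus strand) and chr12:24708041-24708240 (plus strand). Another Uhrf1 stretch, chr17:56303121-56303320, directly before the annotated gene, holds 0 matches and is not printed.
Mcm5: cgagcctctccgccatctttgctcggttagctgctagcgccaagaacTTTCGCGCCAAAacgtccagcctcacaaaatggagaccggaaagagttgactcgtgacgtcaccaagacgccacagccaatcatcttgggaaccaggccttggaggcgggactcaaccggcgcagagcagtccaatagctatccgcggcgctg
Mcm6: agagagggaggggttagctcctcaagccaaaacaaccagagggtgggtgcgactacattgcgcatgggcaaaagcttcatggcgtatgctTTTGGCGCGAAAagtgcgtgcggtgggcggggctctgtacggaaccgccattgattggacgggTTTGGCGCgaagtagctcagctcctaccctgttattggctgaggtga
Cdc6: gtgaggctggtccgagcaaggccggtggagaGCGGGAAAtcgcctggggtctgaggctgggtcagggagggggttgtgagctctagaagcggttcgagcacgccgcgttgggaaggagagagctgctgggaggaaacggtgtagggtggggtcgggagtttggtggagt
Pola1: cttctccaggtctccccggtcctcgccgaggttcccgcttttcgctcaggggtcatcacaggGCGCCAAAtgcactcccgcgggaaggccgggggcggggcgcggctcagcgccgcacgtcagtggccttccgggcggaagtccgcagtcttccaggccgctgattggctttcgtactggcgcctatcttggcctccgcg
Uhrf1: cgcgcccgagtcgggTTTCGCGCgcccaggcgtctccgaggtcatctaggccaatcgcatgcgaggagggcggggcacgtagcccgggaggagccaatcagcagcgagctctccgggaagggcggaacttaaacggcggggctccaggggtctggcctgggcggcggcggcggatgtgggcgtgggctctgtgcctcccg
Rrm2: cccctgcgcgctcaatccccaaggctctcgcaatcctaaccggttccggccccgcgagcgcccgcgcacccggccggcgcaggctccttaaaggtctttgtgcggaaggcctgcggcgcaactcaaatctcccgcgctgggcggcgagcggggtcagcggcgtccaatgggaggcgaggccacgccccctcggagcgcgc

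The window of Gins3, which was not called in any line, also holds a match, 41 bases before its start. Other replication genes held the E2F-type letters in 10 of 42 windows (23.8%), regulators of the G1 to S step in 7 of 18 (38.9%) and G2 and M genes in 2 of 21 (9.52%). TTTGAA, the letters of the cell cycle genes homology region known from mitotic gene promoters, occurred in 4 of 32 member windows (12.5%), 16 of 21 windows of G2 and M genes (76.2%) and 20.2% of all windows. The member windows had a median GC content of 61.3%, against 53.3% for all genes, and GGGCGG and CCAAT occurred in 78.1% and 53.1% of them, against 38.2% and 41.1%. Whether base composition accounts for the share of E2F-type matches was not tested.

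All 3 licensing genes rose in the 3 lines, by medians of 1.39, 1.50 and 1.54 on the log2 scale. Orc1, the largest subunit of the origin recognition complex (chr4:108579423-108614833, GRCm38), read 0.898 and 0.499 CPM in the controls, 2.51, 3.34 and 4.85 for ATP4B-DTR, 2.89, 3.97 and 4.21 for GIF-DTR, and 3.67, 6.63 and 6.2 for GIF/ATP4B-DTR. All 9 line samples stood above both controls, and GIF/ATP4B-DTR 2 and 3 were the highest. Its log2 fold changes were 2.33 ± 0.45, 2.38 ± 0.45 and 2.95 ± 0.46 (edgeR adjusted p = 0.00468, 0.00652 and 0.000719), or 5.03, 5.2 and 7.75-fold, from control levels below 1 CPM. Cdc6, the ATPase that helps load the ring, read 7.09 and 5.65 CPM in the controls, 16.4, 9.13 and 14.2 for ATP4B-DTR, 10.2, 17.5 and 18.6 for GIF-DTR, and 14.2, 15.8 and 17 for GIF/ATP4B-DTR. Its groups did not overlap with the controls, although ATP4B-DTR 2 at 9.13 CPM was close to control 1, and it rose by 1.05 ± 0.30, 1.27 ± 0.30 and 1.29 ± 0.30. Cdt1, the partner of Cdc6 in loading, read 8.04 and 6.82 CPM in the controls, 21, 15.2 and 22.1 for ATP4B-DTR, 17.3, 22.2 and 23.7 for GIF-DTR, and 20.2, 21.2 and 23.7 for GIF/ATP4B-DTR. The lowest line sample, ATP4B-DTR 2, was well above the higher control, with log2 fold changes of 1.39 ± 0.20, 1.50 ± 0.21 and 1.54 ± 0.21. Geminin (Gmnn), the inhibitor of Cdt1, did not pass the test (-0.05 ± 0.20, 0.03 ± 0.20 and -0.02 ± 0.20), so that the per-length ratio of Cdt1 to Gmnn went from 0.147 and 0.139 in the controls to between 0.281 and 0.586 in the lines. Among the other origin subunits Orc6 rose by 1.75, 1.67 and 2.22, Orc2 rose in ATP4B-DTR and the combined line (0.63, 0.53 and 0.94) and Orc4 in the combined line (0.44, 0.52 and 0.81), and Orc3 and Orc5 were not called in any line; the differences of these subunits between lines did not pass.

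All 6 genes of the MCM ring rose in the 3 lines, and by unequal amounts although the ring holds 1 copy of each subunit. Mcm5, the subunit with the largest change, read 14.2 and 11.9 CPM in the controls, 49.3, 35.9 and 49.4 for ATP4B-DTR, 43.8, 56.1 and 66.7 for GIF-DTR, and 43.5, 61.3 and 63.3 for GIF/ATP4B-DTR. The controls lay far below all 9 line samples, of which GIF-DTR 3 was the highest and ATP4B-DTR 2 the lowest. It rose by 1.78 ± 0.24, 2.09 ± 0.24 and 2.10 ± 0.24 (edgeR adjusted p = 0.000836, 0.00106 and 0.000148). Mcm6, the most abundant subunit per length, read 37.7 and 33.9 CPM in the controls, 97.2, 67.1 and 97.8 for ATP4B-DTR, 81.3, 86 and 99.5 for GIF-DTR, and 91.5, 105 and 86.4 for GIF/ATP4B-DTR. The groups did not overlap with the controls, and the log2 fold changes were 1.29 ± 0.18, 1.31 ± 0.18 and 1.40 ± 0.18. Mcm2, with the smallest change, read 21.9 and 19.6 CPM in the controls, 36.5, 30.4 and 46.4 for ATP4B-DTR, 33.9, 45 and 53.3 for GIF-DTR, and 38.1, 48.1 and 49.5 for GIF/ATP4B-DTR. Its line samples also all exceeded both controls, and it rose by 0.86 ± 0.22, 1.09 ± 0.22 and 1.13 ± 0.22. Mcm3, Mcm4 and Mcm7 lay between these, at 1.55, 1.78 and 1.94 for Mcm3, 1.26, 1.41 and 1.52 for Mcm4 and 1.44, 1.65 and 1.67 for Mcm7. As shares of the 6 subunits' summed CPM per kb, Mcm2 made up 15.4% in both controls and between 9.59% and 12.2% in the lines, and Mcm6 between 30.8% and 30.9% in the controls, against 24.1% to 29.8% in the lines. Mcm5 went the other way, from between 9.29% and 10% to between 12.1% and 15.2%, and Mcm3 from between 13.6% and 13.7% to between 14.6% and 17.9%. The shares of these 4 subunits therefore did not overlap between controls and lines, which was given no test. Mcmbp, a protein that binds MCM subunits off the DNA, did not pass in any line (0.02, -0.07 and 0.14).

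**Figure D2:**
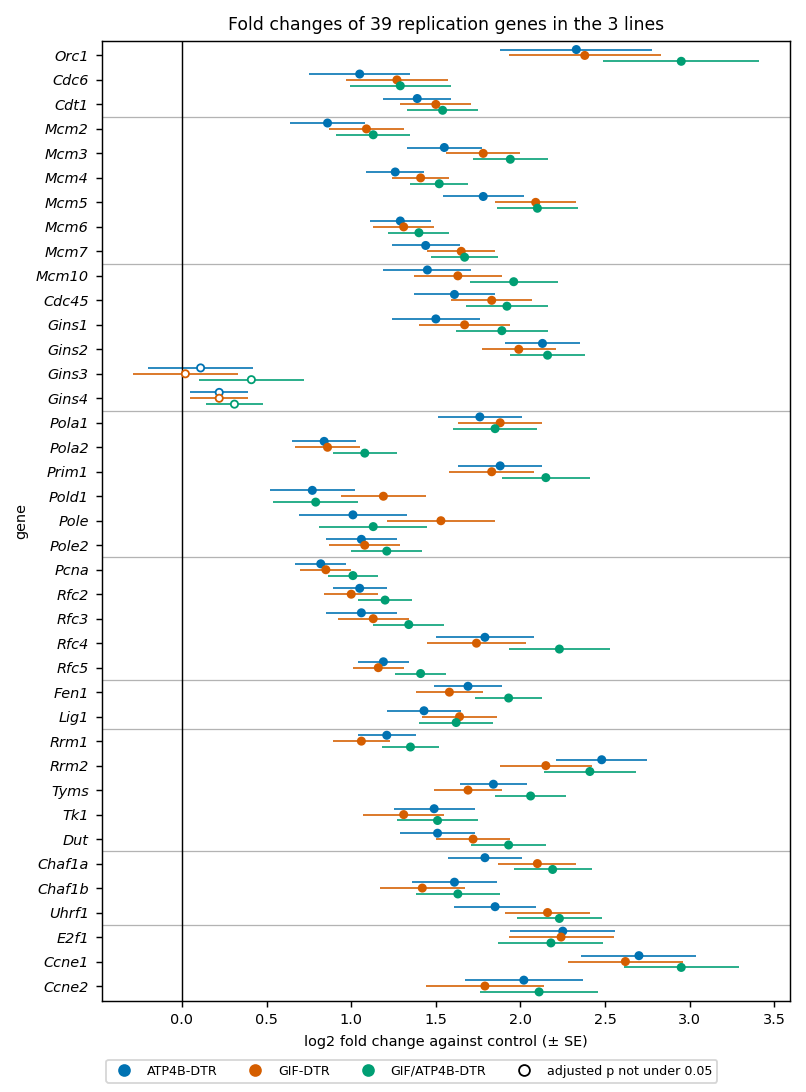
Log2 fold change against control with its SE for the 39 replication genes in the 3 lines (one colour each); filled points have an adjusted p under 0.05. All points but those of Gins3 and Gins4 are filled, and Orc1 and Ccne1 lie farthest to the right, at up to 2.95.

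Of the 6 genes of helicase activation, 4 rose and 2 were not called in any line, and the split ran through the GINS complex, which is built of 1 copy each of Gins1 to Gins4. Gins2 (chr8:120578633-120589304) read 4.04 and 2.38 CPM in the controls, 14.8, 14.4 and 13.3 for ATP4B-DTR, 11.9, 13.2 and 13.4 for GIF-DTR, and 13.1, 16.3 and 13.9 for GIF/ATP4B-DTR. Its line samples were all at least 11.9 CPM, with no overlap, and it rose by 2.13 ± 0.22, 1.99 ± 0.22 and 2.16 ± 0.22 (edgeR adjusted p = 0.000247, 0.00106 and 8.64e-05). Its counts were fractional in all 11 samples, so part of its reads was shared with other sequences by the authors' counting and its level is less certain. Gins1 rose by 1.50 ± 0.26, 1.67 ± 0.27 and 1.89 ± 0.27, from a mean of 4.43 ± 1.8 CPM in the controls (SD, n = 2). Gins3 (chr8:95633453-95645060) read 5.43 and 3.66 CPM in the controls, 4.84, 3.6 and 6.3 for ATP4B-DTR, 4.26, 4.6 and 5 for GIF-DTR, and 6.17, 7.22 and 4.77 for GIF/ATP4B-DTR. The groups overlapped, with ATP4B-DTR 2 below both controls, and the log2 differences were 0.11 ± 0.31, 0.02 ± 0.31 and 0.41 ± 0.31 (edgeR adjusted p = 0.826, 0.972 and 0.322). Gins4 (chr8:23226616-23237659) read 16.2 and 12 CPM in the controls, 17.8, 15.3 and 16.1 for ATP4B-DTR, 16.6, 16.3 and 16.2 for GIF-DTR, and 20.5, 15.5 and 16.5 for GIF/ATP4B-DTR. Control 1, at 16.2 CPM, lay within the range of the line samples, and the log2 differences were 0.22 ± 0.17, 0.22 ± 0.17 and 0.31 ± 0.17 (edgeR adjusted p = 0.396, 0.434 and 0.183). Per kilobase, the ratio of Gins2 to Gins3 was 0.48 and 0.421 in the controls, against 1.36 to 2.58 in the 9 line samples, and that of Gins1 to Gins4 0.437 and 0.327 against 0.829 to 1.64. Mcm10 and Cdc45, which act with the ring when the helicase starts, rose by 1.45, 1.63 and 1.96 for Mcm10 and 1.61, 1.83 and 1.92 for Cdc45. The sign of the small Gins3 difference from control depended on single samples in ATP4B-DTR and GIF-DTR.

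**Figure D3:**
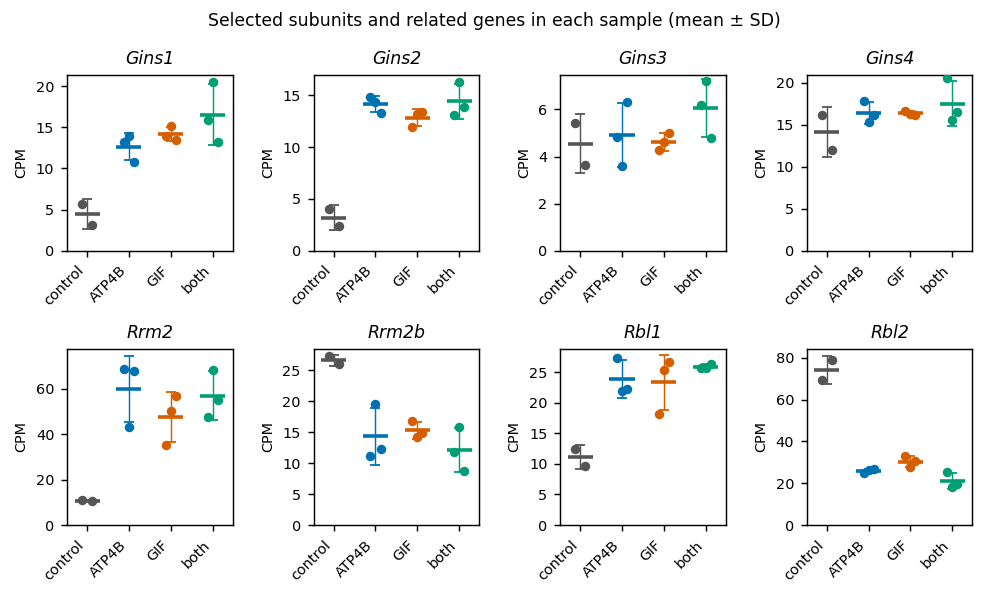
CPM of the 4 GINS subunits, of Rrm2 and Rrm2b and of Rbl1 and Rbl2 in each sample (points), with group means (horizontal lines) and SD (bars), by group, where ATP4B and GIF are the single lines and GIF/ATP4B-DTR is marked both. Gins1, Gins2, Rrm2 and Rbl1 stand above the controls in all 9 line samples, Rrm2b and Rbl2 below them, and Gins3 and Gins4 overlap.

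All 6 polymerase and primase genes rose in the 3 lines, with Prim1 and Pola1 of the priming complex at the top and Pold1, Pola2, Pole and Pole2 lower. Prim1, the catalytic primase subunit, read 7.99 and 6.26 CPM in the controls, 29.3, 25.5 and 24 for ATP4B-DTR, 20.2, 24.6 and 31.4 for GIF-DTR, and 27.7, 41.6 and 25.9 for GIF/ATP4B-DTR. The lowest line sample, GIF-DTR 1, was well above the higher control, and GIF/ATP4B-DTR 2 stood above the rest. It rose by 1.88 ± 0.25, 1.83 ± 0.25 and 2.15 ± 0.26 (edgeR adjusted p = 0.000858, 0.00175 and 0.000184). Pold1, the catalytic subunit of polymerase delta, read 5.61 and 6.21 CPM in the controls, 11.4, 7.86 and 11.1 for ATP4B-DTR, 9.37, 15.3 and 15.8 for GIF-DTR, and 10.4, 10.7 and 9.65 for GIF/ATP4B-DTR. The groups did not overlap, but ATP4B-DTR 2 was close to control 2, and GIF-DTR 2 and 3 were the highest of all. It rose by 0.77 ± 0.25, 1.19 ± 0.25 and 0.79 ± 0.25 (edgeR adjusted p = 0.0463, 0.0107 and 0.0293), close to the threshold in ATP4B-DTR and GIF/ATP4B-DTR. Pole, the catalytic subunit of polymerase epsilon, had the lowest level per length of the 39 and rose by 1.01 ± 0.32, 1.53 ± 0.32 and 1.13 ± 0.32 (edgeR adjusted p = 0.0435, 0.0108 and 0.0188); GIF-DTR 2 and 3, at 13.1 and 15.1 CPM, were its highest samples. In ATP4B-DTR the call of Pold1 held in 6 of the 20 alternatives and that of Pole in 9. Pola1 rose by 1.76, 1.88 and 1.85, Pola2, its regulatory partner, by 0.84, 0.86 and 1.08, and Pole2 by 1.06, 1.08 and 1.21. Of the accessory subunits on the other list, Pold2, Pold3 and Pole3 rose in the 3 lines, Pole3 by 0.45, 0.51 and 0.73 (not passed in 10 of the 20 alternatives for ATP4B-DTR and 6 for GIF-DTR), while Pold4, Pole4 and Prim2 passed the test only against control in GIF/ATP4B-DTR, at 0.87, 0.63 and 1.22; their differences between the lines did not pass.

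The sliding clamp and its loader rose in the 3 lines, 5 of 5 genes. Pcna, the clamp that tethers polymerases to DNA and the most abundant member per length, read 65.7 and 56.4 CPM in the controls, 115, 107 and 102 for ATP4B-DTR, 105, 104 and 122 for GIF-DTR, and 104, 138 and 128 for GIF/ATP4B-DTR. Its controls lay well below the 9 line samples, which were close to one another. It rose by 0.82 ± 0.15, 0.85 ± 0.15 and 1.01 ± 0.15 (edgeR adjusted p = 0.00387, 0.00492 and 0.000633), or 1.77, 1.81 and 2.02-fold, the smallest change of this group. Rfc4, a loader subunit, read 5.39 and 4.16 CPM in the controls, 20.1, 17 and 12.6 for ATP4B-DTR, 13.9, 15.4 and 18.5 for GIF-DTR, and 17.9, 30.8 and 18.6 for GIF/ATP4B-DTR. No line sample came near the controls, and GIF/ATP4B-DTR 2 was far above the other 8. It had the largest change of the group, 1.79 ± 0.29, 1.74 ± 0.29 and 2.23 ± 0.30. Rfc2, Rfc3 and Rfc5 rose by between 1.00 and 1.41, and Rfc1, the large loader subunit on the other list, by 0.50 in ATP4B-DTR and 0.55 in the combined line, with 0.35 in GIF-DTR not called. The alternative loader subunits Dscc1 and Chtf18, which load the clamp in a complex with the small Rfc subunits, rose by 2.59, 2.90 and 2.96 for Dscc1 and 2.12, 2.25 and 2.35 for Chtf18, and Chtf8 of the same complex did not pass (-0.15, -0.01 and -0.02).

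Both Okazaki fragment enzymes rose in the 3 lines. Fen1, the nuclease that trims the flap of each fragment, read 8.71 and 8.48 CPM in the controls, 31.1, 22.3 and 29.7 for ATP4B-DTR, 21.7, 26.4 and 29.1 for GIF-DTR, and 27.1, 37.1 and 34 for GIF/ATP4B-DTR. With controls that differed by little from each other and no overlap, it rose by 1.69 ± 0.20, 1.58 ± 0.20 and 1.93 ± 0.20 (edgeR adjusted p = 0.000451, 0.00142 and 9.45e-05). Lig1, the ligase that seals the fragments, read 17.5 and 14.3 CPM in the controls, 51.8, 35.3 and 41.5 for ATP4B-DTR, 38.5, 47.7 and 62.4 for GIF-DTR, and 49.9, 49.2 and 47.3 for GIF/ATP4B-DTR. GIF-DTR 3 was the highest sample and ATP4B-DTR 2 the lowest of the lines, still above both controls, and the log2 fold changes were 1.43 ± 0.22, 1.64 ± 0.22 and 1.62 ± 0.22. Dna2, a nuclease and helicase that also acts on flaps, rose by 2.53, 2.45 and 2.53, the RNase H2 subunits Rnaseh2b and Rnaseh2c by 1.29, 1.14 and 1.21 and 1.52, 1.48 and 1.71, and the catalytic subunit Rnaseh2a by 0.51, 0.54 and 0.78.

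All 5 genes of nucleotide supply rose in the 3 lines, and Rrm2, which encodes the small subunit of ribonucleotide reductase made in S phase, had the largest change among them. It read 10.8 and 10.6 CPM in the controls, 68.7, 42.9 and 67.5 for ATP4B-DTR, 35.2, 50.2 and 56.9 for GIF-DTR, and 47.4, 68.3 and 55.1 for GIF/ATP4B-DTR. The controls were nearly equal, and the lowest line sample, GIF-DTR 1, was above 35 CPM; the ATP4B-DTR samples spread from 42.9 to 68.7 CPM. Its log2 fold changes were 2.48 ± 0.27, 2.15 ± 0.27 and 2.41 ± 0.27 (edgeR adjusted p = 0.000336, 0.00142 and 0.000149), or 5.57, 4.43 and 5.31-fold. Rrm1, the large subunit, read 50.5 and 42.4 CPM in the controls, 121, 90.6 and 110 for ATP4B-DTR, 86.8, 93.1 and 111 for GIF-DTR, and 103, 127 and 124 for GIF/ATP4B-DTR. It rose in the lines without overlap, by 1.21 ± 0.17, 1.06 ± 0.17 and 1.35 ± 0.17, less than Rrm2. Tk1, thymidine kinase of the salvage route, read 19.7 and 12.2 CPM in the controls, 56.6, 40.7 and 37.6 for ATP4B-DTR, 32.5, 41.1 and 45 for GIF-DTR, and 49.5, 45.1 and 41.6 for GIF/ATP4B-DTR. Control 1 stood above control 2, and all line samples above both, with rises of 1.49 ± 0.24, 1.31 ± 0.24 and 1.51 ± 0.24. Tyms, thymidylate synthase, and Dut, which removes dUTP, rose by 1.84, 1.69 and 2.06 for Tyms and 1.51, 1.72 and 1.93 for Dut. Rrm2b, the alternative small subunit that serves cells outside S phase, read 27.2 and 25.9 CPM in the controls, 11.1, 19.6 and 12.2 for ATP4B-DTR, 16.8, 14.2 and 14.9 for GIF-DTR, and 11.8, 15.8 and 8.73 for GIF/ATP4B-DTR. All 9 line samples lay below both controls. It fell in the ATP4B and the combined line, with log2 fold changes of -0.89 ± 0.26 and -1.14 ± 0.26, and did not pass in GIF-DTR (-0.80 ± 0.26, edgeR adjusted p = 0.061). The ratio of Rrm2 to Rrm2b per kilobase was 0.824 and 0.853 in the controls, against 4.35 to 13.1 in the lines. The fall in ATP4B-DTR did not pass in 6 of the 20 alternatives, and that in GIF/ATP4B-DTR passed in all 20.

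The 3 chromatin genes rose in the 3 lines. Uhrf1, which reads the methylation of the parental strand behind the fork, read 12.8 and 9.76 CPM in the controls, 42.1, 32.1 and 48.4 for ATP4B-DTR, 38.3, 53.3 and 60.3 for GIF-DTR, and 44.5, 57.9 and 56.3 for GIF/ATP4B-DTR. GIF-DTR 3 was the highest and ATP4B-DTR 2 the lowest of the line samples, all above both controls, and it rose by 1.85 ± 0.24, 2.16 ± 0.25 and 2.23 ± 0.25 (edgeR adjusted p = 0.0008, 0.00106 and 0.00013). Chaf1b, a subunit of the assembly factor that deposits histones on new DNA, read 4.76 and 4.32 CPM in the controls, 15.7, 10.8 and 15 for ATP4B-DTR, 11.3, 11 and 14.2 for GIF-DTR, and 11, 13.7 and 17.6 for GIF/ATP4B-DTR. Its line samples did not overlap with the controls, and it rose by 1.61 ± 0.25, 1.42 ± 0.25 and 1.63 ± 0.25. Chaf1a, the large subunit of the same factor, rose by 1.79, 2.10 and 2.19. Dnmt1, the methyltransferase that Uhrf1 recruits, passed the test in GIF-DTR (0.82) and not in ATP4B-DTR (0.53) or GIF/ATP4B-DTR (0.57), and its differences between lines did not pass. The histone chaperones Asf1b and Nasp rose by 1.75, 1.69 and 1.85 and 1.54, 1.53 and 1.85.

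The 3 genes of G1 to S control rose in the 3 lines, with medians of 2.25, 2.24 and 2.18. Ccne1, cyclin E1, the partner of Cdk2 at the start of S phase, read 1.17 and 1.83 CPM in the controls, 9.96, 7.11 and 12 for ATP4B-DTR, 7.24, 11.3 and 9.01 for GIF-DTR, and 9.4, 14 and 11.3 for GIF/ATP4B-DTR. Both controls were below 2 CPM and the lowest line sample above 7 CPM. It rose by 2.70 ± 0.34, 2.62 ± 0.34 and 2.95 ± 0.34 (edgeR adjusted p = 0.000574, 0.00142 and 0.000148), or 6.5, 6.16 and 7.75-fold. Ccne2, cyclin E2, read 5.03 and 5.05 CPM in the controls, 14.8, 25.5 and 21.1 for ATP4B-DTR, 15.3, 16.3 and 20.6 for GIF-DTR, and 16, 33.1 and 16.3 for GIF/ATP4B-DTR. The controls were nearly equal, no line sample came near them, and GIF/ATP4B-DTR 2 and ATP4B-DTR 2 were the highest. Its log2 fold changes were 2.02 ± 0.35, 1.79 ± 0.35 and 2.11 ± 0.35. E2f1, an activating E2F factor, rose by 2.25 ± 0.31, 2.24 ± 0.31 and 2.18 ± 0.31, from 1.7 ± 0.498 CPM in the controls (SD, n = 2) to means between 7.68 and 8.07 CPM in the lines (n = 3 each). Cdk2 itself did not pass in any line (0.39, 0.34 and 0.33).

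Of the regulators of the G1 to S step that are not members, 25 of 26 could be tested, all but Cdkn2a, which had 0.166 CPM or less in each sample. In ATP4B-DTR 8 rose and 1 fell, the GIF line had 9 that rose and 3 that fell, and the combined line 14 and 2, with medians of 0.47, 0.55 and 0.65. Of all genes tested, 12.2%, 9.97% and 18.2% were called higher and 9.39%, 6.82% and 15.4% lower in these 3 comparisons. The largest rises in GIF/ATP4B-DTR were those of Fbxo5, an inhibitor of the anaphase-promoting complex (1.86, 1.79 and 2.08), Ccna2, cyclin A2 (1.74, 1.60 and 1.92), and Skp2, which marks p27 for destruction (1.67, 1.64 and 1.75). Among the E2F genes, E2f3 and E2f8 also rose in the 3 lines, E2f4 in GIF-DTR and the combined line and E2f2, E2f5 and E2f7 in the combined line, and E2f6 did not pass in any; E2f4 in GIF-DTR did not pass in 15 of the 20 alternatives. By the edgeR test 0 of the 25 regulators were called different between any pair of lines. For GIF-DTR against ATP4B-DTR, the combined line against ATP4B-DTR and the combined line against GIF-DTR, 2, 3 and 1 had an unadjusted p under 0.05. Of all genes, 9.81%, 10.4% and 18% had such a p, and 0.49%, 0% and 2.53% were called. In the alternatives, DESeq2 included, at most 1 regulator was called in each. Rbl1 and Rbl2 encode the pocket proteins p107 and p130, of which p130 is known for repressing E2F targets in resting cells. Rbl2 read 69.4 and 79.1 CPM in the controls, 25, 26.2 and 26.8 for ATP4B-DTR, 32.9, 27.6 and 30.6 for GIF-DTR, and 25.6, 18.3 and 19.7 for GIF/ATP4B-DTR. All 9 line samples were below both controls, and it fell, with log2 fold changes of -1.51 ± 0.15, -1.29 ± 0.15 and -1.81 ± 0.15 (edgeR adjusted p = 0.000188, 0.00108 and 2.48e-05); the fall passed in all 20 alternatives in each line. Its counts were fractional in all 11 samples, so its level is less certain. Rbl1 rose by 1.10 ± 0.19, 1.07 ± 0.19 and 1.22 ± 0.19, and the ratio of Rbl1 to Rbl2 per kilobase went from 0.183 and 0.124 in the controls to between 0.56 and 1.42 in the lines. Rb1 passed as lower in GIF-DTR (-0.49) and not in ATP4B-DTR (-0.13) or GIF/ATP4B-DTR (-0.32); this call was lost in 11 of the 20 alternatives, and its differences between lines did not pass. Cdkn1c, the cyclin-dependent kinase inhibitor p57, fell in GIF-DTR and GIF/ATP4B-DTR, with log2 fold changes of -1.67 and -2.10, but the controls were far apart at 8.76 and 30.4 CPM, and it was not called in ATP4B-DTR (-0.43). Without control 2 the Cdkn1c values were 0.73, -0.51 and -0.95 and without control 1 they were -1.06, -2.31 and -2.74, with a call in ATP4B-DTR as well (edgeR adjusted p = 0.0258); the call in GIF-DTR was lost in 4 of the 20 alternatives, among them that without control 2, and that in GIF/ATP4B-DTR passed in all 20. Cdkn1a and Cdkn1b, the inhibitors p21 and p27, did not pass in any line. Without control 2, 6, 4 and 8 of these regulators were called higher in the 3 lines, and with the Y-linked covariate 8, 6 and 14.

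Of the other replication genes, 51 in all and all tested, 35 rose and 1 fell in ATP4B-DTR, 33 rose and 0 fell in GIF-DTR, and the combined line had 40 that rose and 1 that fell, the 1 being Rrm2b. Their medians were 0.80, 0.87 and 1.15. The shares of all genes tested were 12.2%, 9.97% and 18.2% called higher and 9.39%, 6.82% and 15.4% called lower. The largest rises in GIF/ATP4B-DTR were those of Dscc1, Dna2 and Wdhd1, the last a fork protein that links the helicase to polymerase alpha (2.19, 2.22 and 2.47). Next to Rrm2b at the low end in GIF/ATP4B-DTR were Samhd1, which breaks down nucleotides (0.04, 0.46 and -0.17), and Chtf8. The Samhd1 controls were far apart, at 64.3 and 26.2 CPM, and the combined line lay between them at 40.6, 48.8 and 31.3 CPM. Without control 2, 20, 20 and 30 of the 51 were called higher, and with the Y-linked covariate 28, 16 and 40. G2 and M genes also rose, beside the same shares of all genes called higher. Of 24, 24 rose in ATP4B-DTR, 22 rose in GIF-DTR and 24 rose in the combined line, with medians of 1.58, 1.44 and 1.71. The 2 that did not pass in GIF-DTR were Plk1, a mitotic kinase (0.56), and Cenpf, a kinetochore protein (0.50). Mki67, the proliferation antigen Ki-67, read 99.7 and 63.9 CPM in the controls, 233, 159 and 170 for ATP4B-DTR, 136, 174 and 213 for GIF-DTR, and 197, 224 and 188 for GIF/ATP4B-DTR. Both controls were below all 9 line samples, and it rose by 1.20 ± 0.25, 1.09 ± 0.25 and 1.31 ± 0.25. Control 1 stood above control 2 in this list too, with per-sample medians of 0.27 and -0.27 (log2 over the control mean), and without control 2 the calls were 14, 12 and 22, and with the Y-linked covariate 23, 17 and 24.

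**Figure D4:**
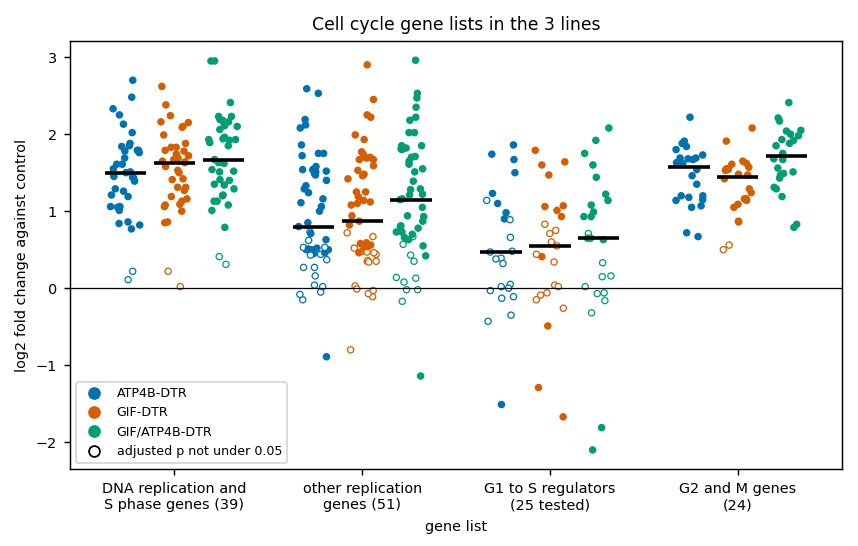
Log2 fold change against control of each tested gene of 4 cell cycle lists in the 3 lines; points are genes, filled where the adjusted p was under 0.05, and black bars are list medians. The member medians lie between 1.49 and 1.67, those of the G2 and M genes between 1.44 and 1.71, and those of the other replication genes between 0.80 and 1.15.

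Compared with one another, the lines differed in none of the 39 genes by the edgeR test. GIF-DTR against ATP4B-DTR gave 0 called genes, with a median of 0.03, a range of -0.33 to 0.52 and SE between 0.13 and 0.35, and 0 genes had an unadjusted p under 0.05, which 9.81% of all genes had; of all genes 0.403% were called higher and 0.0873% lower, 0.49% in all. GIF/ATP4B-DTR against ATP4B-DTR gave 0 called and 2 at an unadjusted p under 0.05 (10.4% of all genes), and 0% of all genes were called. Its median was 0.23, against 0.000 over all genes, with 37 of the 39 differences positive. GIF/ATP4B-DTR against GIF-DTR gave 0 called and 1 at an unadjusted p under 0.05 (18% of all genes), and 2.53% of all genes were called. Its median was 0.17, against 0.009 over all genes, with 34 of 39 positive. The members moved together within samples, with ATP4B-DTR 2 the lowest line sample in 20 and GIF/ATP4B-DTR 2 the highest in 23. The signs are therefore not independent observations. With the Y-linked covariate the medians were 0.11, 0.08 and -0.05 in this order of comparisons, so that the last changed sign. DESeq2 also called 0 of the 39 in each of these comparisons. Orc1 differed by 0.62 ± 0.35 between GIF/ATP4B-DTR and ATP4B-DTR, and Pole by 0.52 ± 0.27 between GIF-DTR and ATP4B-DTR. A call that misses the threshold does not show that the lines are alike.

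The design also allows the combined line to be set against the sum of the single lines, as the log2 fold change of GIF/ATP4B-DTR against control less those of ATP4B-DTR and of GIF-DTR; a value of 0 means that the log2 changes add up. A gene raised to a like level in the 3 lines takes a negative value about as large as its rise. The value is therefore not separate from the rise, and it uses the same 2 controls. In 38 of the 39 genes this value was negative, with a median of -1.34 beside -0.038 over all genes. Called lower were 15, against 0.524% of all genes. No comparison with other genes raised in all 3 lines was made. The 3 genes with the lowest values were Ccne1, E2f1 and Rrm2, at -2.37 ± 0.41, -2.31 ± 0.39 and -2.22 ± 0.34 (edgeR adjusted p = 0.0392, 0.037 and 0.0266). In the ring Mcm4, Mcm5, Mcm6 and Mcm7 were called, in helicase activation Gins2, and in licensing Cdt1. The others were Pola1, Fen1, Lig1, Tyms, Chaf1a and Uhrf1. Of the 5 clamp and loader genes 0 were called, with values between -1.30 and -0.66 and 5 of 5 at an unadjusted p under 0.05. Over the whole set 37 of 39 had an unadjusted p under 0.05, as did 15.6% of all genes tested. The number of calls depended on single samples: it was 0 without control 2, GIF-DTR 2, GIF-DTR 3 or GIF/ATP4B-DTR 3, 1 without control 1, ATP4B-DTR 1 or GIF/ATP4B-DTR 1, and 5 without ATP4B-DTR 3. It was 30 with DESeq2 and 0 with the Y-linked covariate, while the median stayed between -1.76 and -1.23 in the 20 alternatives.

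**Figure D5:**
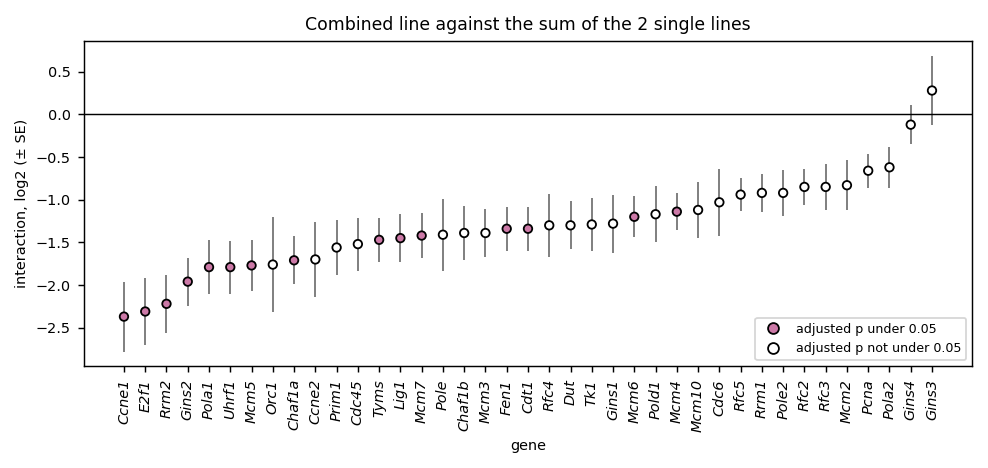
Interaction of the genotypes on the log2 scale with its SE for each of the 39 replication genes, sorted by value; filled points have an adjusted p under 0.05. The filled points, 15 in all, lie between -2.37 and -1.14, and Gins3 is the gene above 0.

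Markers of other dividing or infiltrating cells were set beside these results. Ptprc, carried by all leukocytes, was between 3.91 and 6.6 CPM in the controls, against 1.75 to 7.34 in the lines. The 5 B cell markers summed to at most 1.33 CPM and the 6 T cell markers to at most 3.33 CPM in each sample, with Ms4a1 at 3 counts or fewer throughout. Germinal centre markers summed to between 10.3 and 10.8 CPM in the controls, against 8.55 to 14 in the lines. Macrophage and monocyte markers, 7 of 7 tested, summed to between 16.1 and 73.2 CPM in the controls, 54.9 and 98.1 for ATP4B-DTR, 104 and 178 for GIF-DTR, and 48.4 and 71.5 for GIF/ATP4B-DTR; their part in the rise of the replication genes was not tested. Squamous forestomach markers, of which 1 of 3 could be tested and Krt5 was at 0 in every sample, summed to between 0.277 and 0.943 CPM in the controls, 2.15 and 20.3 for ATP4B-DTR, 0.952 and 1.32 for GIF-DTR, and 1.17 and 4.1 for GIF/ATP4B-DTR. All 9 line samples thus lay above both controls in this sum too, and its part in the rise of the replication genes was not tested. Mitochondrial genes held between 8.73% and 9.39% of the counts in the controls, against 3.88% to 10.8% in the lines. In GIF-DTR all 3 samples had the low Y-linked level, and both controls and every GIF/ATP4B-DTR sample the high one. Genotype and Y-linked level therefore cannot be told apart where GIF-DTR is compared with either group. The fit with the covariate separates them only through ATP4B-DTR, in which ATP4B-DTR 1 alone had the high level.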

How the data were processed

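The authors deposited 1 table of expected counts per gene for 11 samples, estimates in which a read can be shared between genes, as read from the file, where 30.7% of entries above 0 are fractional. Libraries were poly(A)-selected and stranded (TruSeq), per the labels' protocols, and the build is mm10, per the submitters' processing notes. The aligner and counter are not given in the sources used here. Samples of the lines are numbered here in accession order, and the numbers pair nothing: the titles are K442A, K447A and K448A for ATP4B-DTR 1 to 3, K279G, K445G and K446G for GIF-DTR 1 to 3, and K420GA, K422GA and K443GA for GIF/ATP4B-DTR 1 to 3. What the K numbers stand for is not given in the sources used here. Columns left unused numbered 0. The 39 members and all gene lists were chosen with earlier results of these data known.

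Counts were rounded to whole numbers and tested with edgeR 4.0.16 (limma 3.58.1, R 4.3.3): filterByExpr kept 14889 genes, libraries were scaled by TMM, and 1 coefficient per genotype was fitted to all 11 samples with glmQLFit (robust), since there are only 2 controls. The common biological coefficient of variation was 26.6%. SE is the log2 fold change divided by the square root of F. The code was tested on simulated data. Totals were between 20.7 and 27.9 M counts (M, mega); floors of 3 counts cover counting error only. Symbols were found for 34582 of the 34866 identifiers (99.2%), and GENCODE M21 (GRCm38) gave positions and principal transcript lengths. Among the members 20 had no fractional counts and 12 had them in at least 6 samples: Gins2, Pola1, Pola2, Pole, Pole2, Rfc2, Rfc5, Rrm1, Tyms, Chaf1a, E2f1 and Ccne2.

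Each role group has every sample's value for its most abundant member per length and those with the largest and smallest change in GIF/ATP4B-DTR; members not called in each line are named. Genes of the other lists are named only if called or among the 3 largest or smallest changes, and many called ones are given by count alone; Mki67, E2f6, Cdkn1a, Cdkn1b, Cdkn2a and the genes given as uncalled partners of members were chosen after their values were seen. Alternatives were DESeq2 1.42.0, its size factors within edgeR, TMM without the 50 most abundant genes, no filter on low counts, a minimum of 10 counts in each sample, moderation that was not robust, a fit to the compared groups alone, a Y-linked covariate, removal of a length trend, and leaving out each sample.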

Additional observations from a re-analysis of the deposited data

Results flagged for a closer look

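The combined line changed by less than the sum of the single lines, by edgeR's interaction test, in 15 of the 39 replication genes. A gene raised to a like level in each line takes a negative value through its rise alone. On the log2 scale the interaction was -1.34 for Cdt1, -1.14 for Mcm4, -1.77 for Mcm5, -1.20 for Mcm6, -1.42 for Mcm7 and -1.96 for Gins2. It was -1.79 for Pola1, -1.34 for Fen1, -1.45 for Lig1, -2.22 for Rrm2 and -1.47 for Tyms. For Chaf1a, Uhrf1, E2f1 and Ccne1 it was -1.71, -1.79, -2.31 and -2.37. Without control 2 the number of such genes is 0.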

How the results depend on the processing

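Member calls numbered 30 to 37 in ATP4B-DTR, 26 to 37 in GIF-DTR and 34 to 37 in GIF/ATP4B-DTR over 20 alternatives, and 30, 24 and 36 of the 39 members kept their call or its absence, and their direction, in each alternative in which they were tested; Orc1 was not tested with at least 10 counts in every sample. Leaving out 1 sample moved the median log2 fold change to between 1.29 (without control 2) and 1.66 in ATP4B-DTR, between 1.39 and 1.79 in GIF-DTR and between 1.56 and 1.86 in GIF/ATP4B-DTR. Between the lines 0 members were called in any alternative; the leave-one-out medians ran from -0.05 to 0.15 for GIF-DTR against ATP4B-DTR, from 0.13 to 0.29 for GIF/ATP4B-DTR against ATP4B-DTR and from 0.07 to 0.24 for GIF/ATP4B-DTR against GIF-DTR, the last 2 being 0.08 and -0.05 with the Y-linked covariate. The interaction count was 30 with DESeq2, 22 with no filter, 20 with at least 10 counts in every sample, 10 with DESeq2 size factors or without robust moderation, 11 with the length trend removed, 0 with the Y-linked covariate (median -1.76), and 0 to 22 with 1 sample left out (median -1.50 to -1.23). Gins3 was -0.15 in ATP4B-DTR without control 2 and -0.11 without ATP4B-DTR 3, and up to 0.43 without control 1; in GIF-DTR it was -0.24 without control 2, 0.34 without control 1, -0.04 without GIF-DTR 3, -0.01 with the Y-linked covariate and -0.05 with the length trend removed. Gins4 was -0.04 in ATP4B-DTR and -0.03 in GIF-DTR with the length trend removed. All genes called numbered 1315 to 3978, 438 to 3376 and 2874 to 5728 in the 3 lines. With 1 control left, its spread is assumed to be like that of the other groups; the cause of the lost calls was not tested. No paired analysis was possible because only the controls carry replicate numbers in the labels.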
